A study of Mus musculus with 8 samples.

Results

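Fos, Fosb, Jun, Junb, Jund, Egr1, Egr2, Egr3, Nr4a1 and Ier2 are immediate early genes of the AP-1, EGR, NR4A and IER families. They were taken by symbol from a gene table of mouse splenic B cells, and all 10 were found among its 23302 entries. All 10 also had a mean of at least 10 normalized counts over the libraries and so belonged to the 13011 genes tested. The study asked how naive B cells of the spleen change in mice with pancreatic tumors, and whether loss of Ebi3 matters for this. Bulk RNA-seq was made from 8 libraries in 4 groups of 2. The groups were B cells lacking Ebi3 from mice with a tumor (EBi3KO tumor), B cells lacking Ebi3 from mice without one (EBi3KO nontumor), wild-type B cells from mice with a tumor (WT tumor) and wild-type B cells from mice without one (WT nontumor). All groups shared the C57BL/6 strain, the spleen as tissue and B cells as cell type, with no added treatment in the labels. Ebi3 encodes a subunit shared by the cytokines IL-27 and IL-35.

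The labels write the tumor status of the nontumor libraries as WT, which was read here as no tumor. The age and sex of the mice, the tumor model and the way Ebi3 was removed are not given in the labels. Nor do they state that both libraries in a group represent different mice, so p-values measure only the spread between libraries, which may be technical. Each value is a normalized count, that is, a read count per gene divided by a size factor of its library. Differences are on the log2(normalized count + 1) scale, and a gene was called changed at an adjusted p below 0.05 from limma, with Benjamini-Hochberg adjustment over the 13011 genes.

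Immediate early genes are transcribed within minutes of a stimulus, from promoters already bound by factors such as SRF with its TCF partners and CREB, without need for new protein. Their short-lived transcripts encode transcription factors: FOS and JUN proteins pair into AP-1, EGR proteins bind GC-rich sites through zinc fingers, and NR4A1 is an orphan nuclear receptor. In B cells they respond to antigen-receptor signalling, and in many tissues they also respond to cell isolation itself.

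Promoter windows are shown for 4 of the genes, since Fos and Egr2 had lower levels in WT tumor libraries while Fosb and Nr4a1 did not. Windows of 250 bases before to 50 bases after the start come from RefSeq on the GRCm38.p6 build. Capitals mark the CArG box (the SRF site), the CRE half-site TGACG, the EGR site GCGGGGGCG and the TATA box TATAAA on either strand. Fos lies at chr12:85473640-85473939 on the plus strand.
Fos: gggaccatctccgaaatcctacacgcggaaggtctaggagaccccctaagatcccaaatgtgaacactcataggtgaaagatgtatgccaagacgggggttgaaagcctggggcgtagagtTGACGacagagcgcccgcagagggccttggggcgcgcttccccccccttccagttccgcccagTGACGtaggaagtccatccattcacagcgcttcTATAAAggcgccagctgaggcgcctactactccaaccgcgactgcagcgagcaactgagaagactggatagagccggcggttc
Egr2 has several annotated starts, and the window nearest its principal transcript lies at chr10:67537619-67537918 on the plus strand.
Egr2: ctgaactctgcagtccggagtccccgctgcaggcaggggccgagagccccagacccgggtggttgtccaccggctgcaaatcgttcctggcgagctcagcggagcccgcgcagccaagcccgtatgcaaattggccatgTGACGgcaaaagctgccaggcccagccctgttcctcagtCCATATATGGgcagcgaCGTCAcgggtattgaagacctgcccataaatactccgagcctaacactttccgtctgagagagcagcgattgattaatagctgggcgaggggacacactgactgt
Fosb lies at chr7:19309996-19310295 on the minus strand.
Fosb: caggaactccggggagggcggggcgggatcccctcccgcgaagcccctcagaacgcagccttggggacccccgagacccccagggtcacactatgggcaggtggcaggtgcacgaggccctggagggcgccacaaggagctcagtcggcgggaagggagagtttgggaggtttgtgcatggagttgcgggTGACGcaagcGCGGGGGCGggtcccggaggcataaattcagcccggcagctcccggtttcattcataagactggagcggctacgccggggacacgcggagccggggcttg
The Nr4a1 window, around a start inside the annotated span of the gene rather than at its first base, lies at chr15:101266596-101266895 on the plus strand.
Nr4a1: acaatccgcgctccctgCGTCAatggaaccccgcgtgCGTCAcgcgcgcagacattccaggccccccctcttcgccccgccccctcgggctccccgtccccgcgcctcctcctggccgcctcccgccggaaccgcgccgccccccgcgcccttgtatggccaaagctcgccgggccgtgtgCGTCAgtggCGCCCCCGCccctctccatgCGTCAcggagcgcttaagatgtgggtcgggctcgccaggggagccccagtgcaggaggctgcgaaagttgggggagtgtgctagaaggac
The Nr4a1 window holds 4 CRE half-sites, at -233, -213, -69 and -40 from the start, and 76 of 32544 windows in the RefSeq table, or 0.234%, hold at least 4. Any CRE half-site was present in 20.9% of all windows. The Egr2 window holds a CArG box at -72, which 1.64% of windows hold, and the Fos window a TATA box at -33, which 13.6% hold. GCGGGGGCG occurs in the Fosb and Nr4a1 windows and in 2.93% of all windows. The AP-1 site TGACTCA (5.19% of windows), the full CRE TGACGTCA (1.8%), the EGR site GCGTGGGCG (0.618%) and the NR4A site AAAGGTCA (1.52%) were in none of the 4 windows printed. The Jun window holds none of the 8 motifs searched. Neither does the Jund window at chr8:70697489-70697788, but it lies wholly upstream of the Jund gene model used here and so does not span that start, and the Junb window holds 1 CRE half-site and 1 TATA box. These matches describe the letters in the windows and say nothing of binding, nor of sites further upstream or downstream, which were not searched.

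Library depth was 21291892 to 28297319 reads, and a single read was worth close to 1 normalized count, so counting error was small for the abundant members. It was larger for Egr2 and Egr3, with a counting SE of the log2 difference between replicates of 0.086 to 0.127 for Egr2 and 0.075 to 0.143 for Egr3. Summed over the list, the 10 genes took 0.2188% and 0.2206% of reads in the EBi3KO tumor libraries and 0.247% and 0.1506% in the EBi3KO nontumor libraries. They took 0.1316% and 0.1213% in the WT tumor libraries and 0.1976% and 0.1632% in the WT nontumor libraries. Ebi3 itself averaged 9.85 ± 1.63 normalized counts in EBi3KO tumor, 12.1 ± 0.931 in EBi3KO nontumor, 182 ± 26.4 in WT tumor and 9.96 ± 1.44 in WT nontumor libraries (SD, n = 2 each), so without a tumor its level did not separate the genotypes. The 2 WT tumor libraries carry a different title prefix from the other 6, and they alone held high Xist (22974 ± 4549 normalized counts, against means of 6.22 to 16.5 in the other groups) with no reads from the Y-linked genes Eif2s3y, Kdm5d and Uty. Tumor status in wild type, genotype among tumor libraries and the difference of the tumor effects therefore cannot be told apart from the sex pattern and title prefix of those 2 libraries. Comparisons that share a group of libraries are not independent of each other.

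Per kilobase of the longest annotated transcript, a scale on which genes can be set side by side, the FOS and JUN genes stood above the EGR genes. Fos averaged 4917 normalized counts per kb in EBi3KO tumor, 7437 in EBi3KO nontumor, 2108 in WT tumor and 6376 in WT nontumor libraries. Junb averaged 5173, 4878, 2918 and 6091 and Jund 4120, 4155, 1984 and 4415 on that scale in the same order of groups. Egr2 was lowest in WT tumor libraries at 69.0 per kb, where Egr3 was at 150.4. Egr3 was lowest of the 10 in the other 3 groups, with 86.2 per kb in EBi3KO tumor, 66.9 in EBi3KO nontumor and 65.6 in WT nontumor libraries. Junb had the highest level per kb in both tumor groups and Fos in both nontumor groups.

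**Figure D1:**
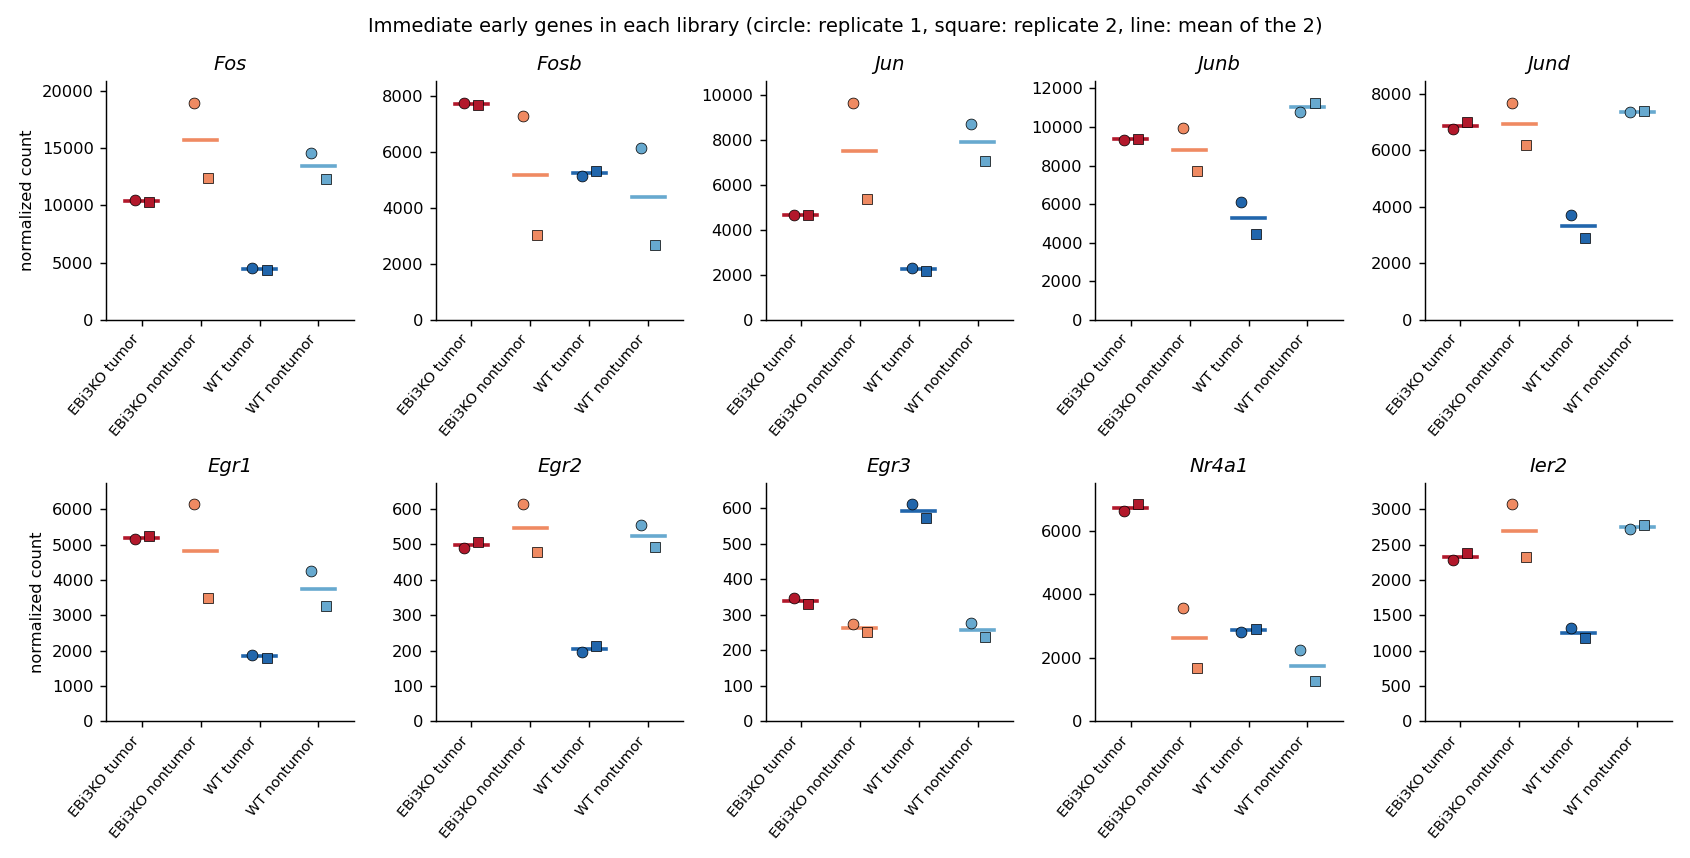
Normalized counts of the 10 genes (vertical axes from 0, a separate scale for each gene) in the 4 groups, with a circle for replicate 1, a square for replicate 2 and a line at their mean. The WT tumor points lie lowest for 7 genes and highest for Egr3, and the EBi3KO tumor points lie close together throughout.

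Fos, the FOS-family partner that forms AP-1 with JUN proteins, lies at chr12:85473890-85477273 (GRCm38, plus strand, 4 exons). It had 4520 and 4367 normalized counts in the WT tumor libraries, against 14589 and 12293 in the WT nontumor libraries. Both tumor values were below both nontumor values, and Fos fell by 1.59 on the log2 scale (SE 0.172, limma adjusted p = 3.45e-05). In EBi3KO B cells Fos had 10468 and 10264 normalized counts with a tumor, against 18972 and 12381 without one. It fell there by 0.56 (SE 0.172, limma adjusted p = 0.037), but 1 nontumor library carried much of this: without EBi3KO nontumor replicate 1 the difference was -0.26 with a limma adjusted p of 0.0964. The call was lost in 11 of 21 alternatives, among them those without either tumor library of either genotype (limma adjusted p = 0.0562 to 0.156). Between tumor groups Fos was 1.22 higher in EBi3KO than in WT libraries (limma adjusted p = 0.00042). Its order of levels was EBi3KO nontumor, WT nontumor, EBi3KO tumor and WT tumor, with overlap only between the nontumor groups.

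Fosb, a FOS-family AP-1 subunit with a truncated splice form known from neurons, lies at chr7:19302696-19310051 (minus strand, 4 exons). It had 5160 and 5340 normalized counts in WT tumor libraries, against 6142 and 2679 in WT nontumor libraries. It had 7770 and 7672 in EBi3KO tumor libraries, against 7310 and 3028 in EBi3KO nontumor libraries. In each nontumor group replicate 1 was more than double replicate 2, by 2.41-fold in EBi3KO and 2.29-fold in WT. The tumor differences were 0.37 in WT (SE 0.425, limma adjusted p = 0.437) and 0.71 in EBi3KO (SE 0.425, limma adjusted p = 0.214). Neither passed the test, and the 95% interval in EBi3KO ran from -0.25 to 1.68. That EBi3KO difference ran from 0.08 to 1.35 with 1 library left out, where 1.35 came without EBi3KO nontumor replicate 1. The EBi3KO tumor values were above the WT tumor values by 0.56 (limma adjusted p = 0.281), which did not pass either although the groups did not overlap; with the tumor libraries fitted alone it passed (limma adjusted p = 2.04e-05).

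Jun, the prototype AP-1 subunit, is a single-exon gene at chr4:95049034-95052222 (minus strand). It had 2303 and 2174 normalized counts in WT tumor libraries, against 8698 and 7074 in WT nontumor libraries. Its fall of 1.81 (SE 0.226, limma adjusted p = 8.26e-05) was the steepest of the 10 genes in wild type. In EBi3KO tumor libraries Jun had 4662 and 4664 normalized counts, against 9640 and 5352 in EBi3KO nontumor libraries. All tumor values were lower, but the difference of -0.62 (SE 0.226, limma adjusted p = 0.0621) did not pass. With 1 library left out, the difference ran from -1.05 to -0.20, where -1.05 came without EBi3KO nontumor replicate 2. It passed narrowly with edgeR (-0.67, edgeR adjusted p = 0.0499). The same held with the trend of level on transcript length and GC content removed (-0.60, limma adjusted p = 0.0471). Between tumor groups Jun was 1.06 higher in EBi3KO than in WT libraries (limma adjusted p = 0.00361).

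Junb and Jund, AP-1 subunits of which JUND is often present at a steady level in resting cells, are single-exon genes at chr8:84974484-84978718 (minus strand) and chr8:70698949-70700616 (plus strand). Junb had 6098 and 4458 normalized counts in WT tumor libraries, against 10778 and 11260 in WT nontumor libraries. Jund had 3713 and 2907 in WT tumor libraries, against 7342 and 7386 in WT nontumor libraries. Both had non-overlapping groups and fell, Junb by 1.08 (SE 0.154, limma adjusted p = 0.000189) and Jund by 1.16 (SE 0.13, limma adjusted p = 4.12e-05). With the trend of level on transcript length and GC content removed, both calls were lost and Jund changed sign (-0.18 for Junb, limma adjusted p = 0.157, and 0.13 for Jund, limma adjusted p = 0.26). In EBi3KO B cells Junb had 9326 and 9389 normalized counts with a tumor, against 9942 and 7705 without one, and Jund had 6750 and 6993, against 7681 and 6179. The groups overlapped for both genes, and the differences were 0.10 for Junb (95% interval -0.25 to 0.45, limma adjusted p = 0.645) and -0.00 for Jund (95% interval -0.30 to 0.29, limma adjusted p = 0.983).

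The EGR family, zinc-finger factors named for early growth response, did not move as a block. Egr1 had 1883 and 1795 normalized counts in WT tumor libraries, against 4249 and 3261 in WT nontumor libraries. It fell by 1.02 (SE 0.224, limma adjusted p = 0.00257), with no overlap. In EBi3KO B cells Egr1 had 5150 and 5260 normalized counts with a tumor, against 6141 and 3507 without one, and the tumor values lay between the nontumor values (difference 0.17, limma adjusted p = 0.585). With 1 library left out, the difference ran from -0.24 to 0.57, where 0.57 came without EBi3KO nontumor replicate 1. Egr1 was 1.501 higher in EBi3KO tumor than in WT tumor libraries (limma adjusted p = 0.000567), the widest genotype difference of the 10 genes among tumor libraries.

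Egr2, known to restrain T cell activation, lies at chr10:67535475-67542188 (plus strand, 2 exons). It had 196.9 and 212.4 normalized counts in WT tumor libraries, against 554.5 and 492.5 in WT nontumor libraries, a fall of 1.35 (SE 0.134, limma adjusted p = 2.09e-05). It had 488.9 and 506.9 in EBi3KO tumor libraries, against 612.0 and 477.5 in EBi3KO nontumor libraries, so those groups overlapped (difference -0.12, limma adjusted p = 0.509). Egr3, a close relative of Egr2 at chr14:70077203-70082614 (plus strand, 2 exons), went the other way. It had 611.4 and 573.4 normalized counts in WT tumor libraries, against 278.4 and 238.7 in WT nontumor libraries, and rose by 1.197 (SE 0.115, limma adjusted p = 1.75e-05). It had 347.1 and 331.8 in EBi3KO tumor libraries, against 273.4 and 253.4 in EBi3KO nontumor libraries. This rise of 0.37 (SE 0.115, limma adjusted p = 0.0405) was near the threshold and lost its call in 9 of 21 alternatives, among them those without EBi3KO nontumor replicate 2 or any 1 of the 4 tumor libraries (limma adjusted p = 0.066 to 0.206). Between tumor groups Egr3 was the only 1 of the 10 lower in EBi3KO than in WT libraries, by -0.80 (limma adjusted p = 0.000459).

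Nr4a1, which encodes the orphan nuclear receptor NUR77, a marker of recent antigen-receptor signalling, lies at chr15:101254269-101274795 (plus strand, 8 exons). It had 6621 and 6825 normalized counts in EBi3KO tumor libraries, against 3563 and 1695 in EBi3KO nontumor libraries. It had 2828 and 2912 in WT tumor libraries, against 2234 and 1258 in WT nontumor libraries. The EBi3KO tumor libraries were the highest of all, and in both genotypes tumor and nontumor values did not overlap. Nr4a1 rose by 1.45 in EBi3KO with a tumor (SE 0.332, limma adjusted p = 0.0152), while the WT difference of 0.78 did not pass (SE 0.332, limma adjusted p = 0.0565). The EBi3KO call was lost without either EBi3KO tumor library (limma adjusted p = 0.0866 without replicate 1 and 0.0908 without replicate 2) and without EBi3KO nontumor replicate 2, where the difference was 0.92 (limma adjusted p = 0.0851). The WT difference ran from 0.36 to 1.19 with 1 library left out, where 1.19 came without WT nontumor replicate 1. It passed with the WT libraries fitted alone (limma adjusted p = 0.0301) and with the length and GC trend removed (1.02, limma adjusted p = 0.0152). Nr4a1 was 1.23 higher in EBi3KO tumor than in WT tumor libraries (limma adjusted p = 0.0114), a call lost without EBi3KO tumor replicate 2 or either WT tumor library (limma adjusted p = 0.0507 to 0.0535).

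Ier2, which encodes a nuclear immediate early protein, is a single-exon gene at chr8:84661331-84662852 (minus strand). It had 1316 and 1181 normalized counts in WT tumor libraries, against 2724 and 2783 in WT nontumor libraries, and fell by 1.14 (SE 0.122, limma adjusted p = 3.2e-05). That call too was lost with the length and GC trend removed (-0.12, limma adjusted p = 0.289). It had 2276 and 2384 in EBi3KO tumor libraries, against 3068 and 2329 in EBi3KO nontumor libraries. Those groups overlapped, with a difference of -0.20 (limma adjusted p = 0.227). That difference ran from -0.40 to 0.00 with 1 library left out, where -0.40 came without EBi3KO nontumor replicate 2. Ier2 was 0.90 higher in EBi3KO tumor than in WT tumor libraries (limma adjusted p = 0.000339).

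In wild type, 7 of the 10 genes fell with a tumor, 1 rose and 2 did not pass. This count of 8 called is no more than the table as a whole gives, since 79.8% of all tested genes were called in that comparison, 39.6% higher and 40.1% lower. Tumor and nontumor libraries did not overlap for 9 of the 10 genes, as for 91.4% of all tested genes. The median difference was -1.11 over the 10 genes and 0.01 over all tested genes. In EBi3KO B cells 1 gene fell, 2 rose and 7 did not pass, against 32.6% of all tested genes called (14.1% higher and 18.5% lower), and the median difference was 0.05. There 5 of the 10 genes did not overlap between groups, against 75.6% of all tested genes. None of the 10 was called in EBi3KO nontumor against WT nontumor libraries by limma, where 0% of all tested genes were called (1049 genes and none of the 10 had an unadjusted p below 0.05). edgeR called 0 genes there and DESeq2 called 21. Of the 10, Junb alone did not overlap between the nontumor groups, against 31.9% of all tested genes. The nontumor differences ran from -0.33 for Junb (95% interval -0.68 to 0.02) to 0.55 for Nr4a1 (95% interval -0.20 to 1.31). These intervals leave room for a sizeable lower level of Junb and a sizeable higher level of Nr4a1 in EBi3KO. Among the 10 genes the interval was widest for Fosb (-0.75 to 1.18) and narrowest for Egr3 (-0.23 to 0.29).

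Among tumor libraries 8 of the 10 were higher in EBi3KO than in WT, 1 was lower and 1 did not pass, where 60.5% of all tested genes were called 31.9% higher and 28.6% lower. In the same comparison 15 of 15 monocyte and macrophage, 12 of 12 erythroid, 8 of 8 NK cell and 8 of 9 T cell markers were higher. So were 7 of 10 dendritic cell, 6 of 8 platelet and 6 of 8 plasma cell markers, with none lower. Of 11 granulocyte markers 8 were higher and 1 lower, and of 10 B cell markers 3 were higher and 6 lower. Of 7 stroma and endothelium markers 1 was higher and 1 lower. The part of these cells in the result was not tested. The tumor groups did not overlap for any of the 10 genes, nor for 88.9% of all tested genes. The median of the 10 was 1.06 and that of all tested genes -0.00. The tumor effect itself differed between genotypes for 8 of the 10 genes, against 52.9% of all tested genes, 27.5% in the positive and 25.4% in the negative direction. EBi3KO minus WT, the difference of the effects was 0.94 to 1.23 for Fos, Jun, Junb, Jund, Egr1, Egr2 and Ier2. It was -0.83 for Egr3 (limma adjusted p = 0.0032). For Fosb (0.34, limma adjusted p = 0.649) and Nr4a1 (0.68, limma adjusted p = 0.249) the difference of the effects did not pass. For Nr4a1 it ran from 0.14 to 1.21 with 1 library left out, where 1.21 came without EBi3KO nontumor replicate 1. The WT tumor libraries enter each of these comparisons, with their sex pattern and title prefix.

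**Figure D2:**
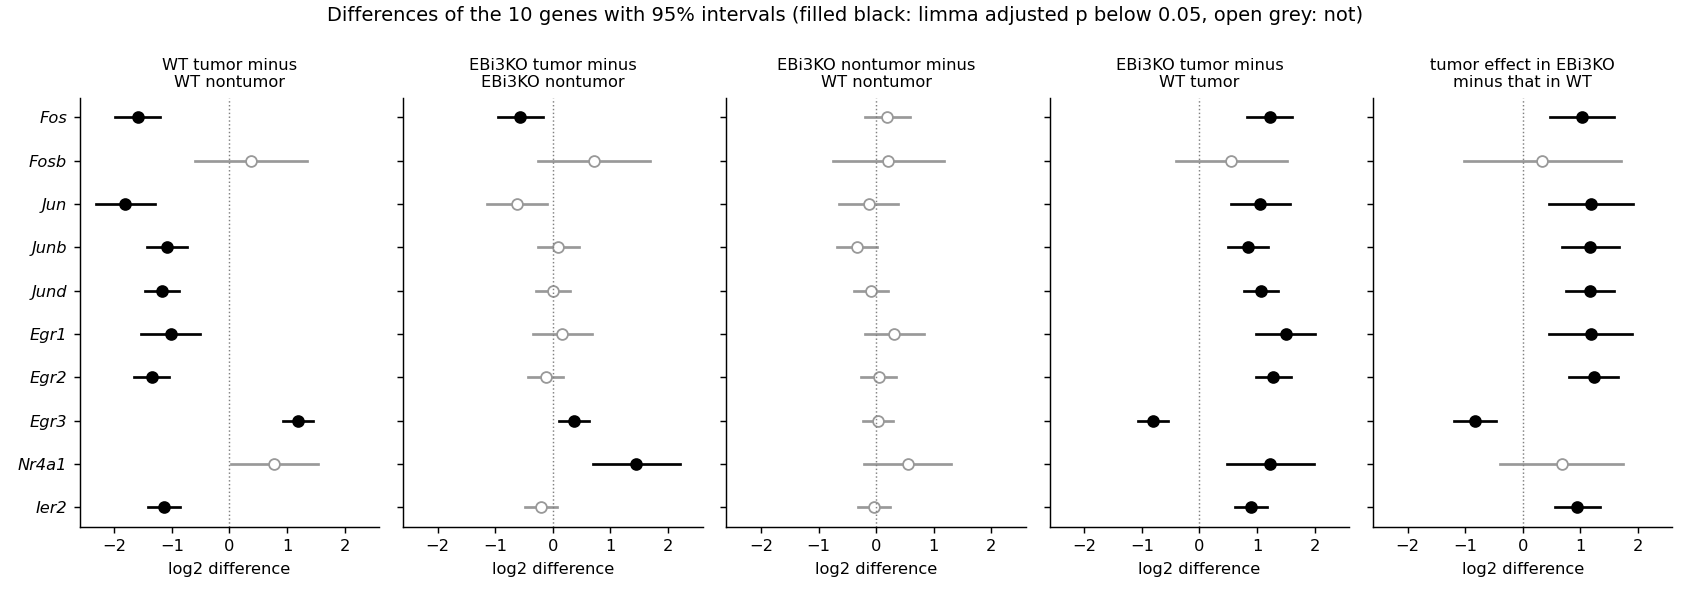
Log2 differences (horizontal axis) of the 10 genes in 5 comparisons, each with its 95% interval from limma, filled black where the adjusted p was below 0.05 and open grey where it was not. Between nontumor groups all 10 intervals cross 0, while 8 genes lie right of 0 and are filled between tumor groups.

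The calls of the 3 most GC-rich members in WT were lost once transcript length and GC content were accounted for. Member transcripts had a median GC content of 56.5%, against 49.9% for tested genes, with Jund at 67.1%, Junb at 62.6% and Ier2 at 60.9%. With a smooth trend of level against length and GC content taken out of each library, the WT tumor difference was 0.13 for Jund, -0.18 for Junb and -0.12 for Ier2. These 3 calls were lost (limma adjusted p = 0.26, 0.157 and 0.289 in the same order), while Fos, Jun, Egr1 and Egr2 remained lower and Egr3 remained higher. The same removal took the calls of Junb, Jund and Ier2 between tumor groups, where their differences were 0.17, 0.17 and 0.15, and those of Jund and Ier2 in the difference of the tumor effects (0.24 and 0.17). It raised the EBi3KO differences to 0.37 for Jund (limma adjusted p = 0.0249) and 0.33 for Junb (limma adjusted p = 0.0432). In EBi3KO it also took the call of Fos (-0.47, limma adjusted p = 0.057), while Jun gained a call (-0.60, limma adjusted p = 0.0471). It gave Nr4a1 a WT difference of 1.02 that passed (limma adjusted p = 0.0152). Whether the trend comes from the libraries or from the cells was not tested.

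**Figure D3:**
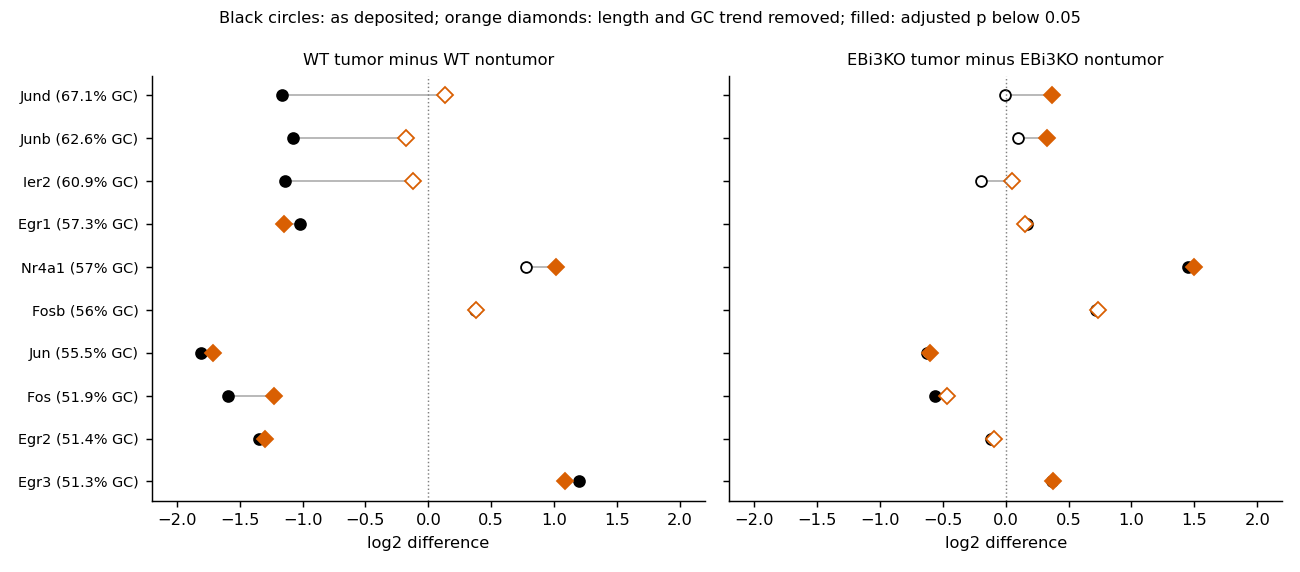
Log2 difference with a tumor (horizontal axis) in WT and in EBi3KO B cells, with genes ordered by transcript GC content, black circles for values as deposited and orange diamonds for values with the length and GC trend removed; filled symbols passed the test. In WT the 3 genes of highest GC content move to between -0.18 and 0.13, while Fos, Jun, Egr1, Egr2 and Egr3 stay on their side of 0.

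Ratios of 2 members within a library do not depend on its scaling, and 5 were taken after the values were seen, so they are given with no test. Fosb over Fos was 0.742 and 0.7475 in EBi3KO tumor libraries, against 0.385 and 0.245 in EBi3KO nontumor libraries. It was 1.14 and 1.22 in WT tumor libraries, against 0.421 and 0.218 in WT nontumor libraries. Nr4a1 over Egr1 was 1.29 and 1.30 in EBi3KO tumor libraries, against 0.483 to 0.580 in EBi3KO nontumor libraries, and 1.501 to 1.62 in WT tumor libraries, against 0.386 to 0.526 in WT nontumor libraries. In both genotypes each tumor library had a higher Fosb over Fos and a higher Nr4a1 over Egr1 than each nontumor library. Egr3 over Egr2 was 2.70 to 3.10 in WT tumor libraries and below 1 in every other library. Jun over Jund was lower with a tumor in both genotypes, with means of 0.679 in EBi3KO tumor against 1.061 in EBi3KO nontumor, and 0.684 in WT tumor against 1.071 in WT nontumor libraries. Junb over Jund moved less, at 1.343 to 1.382 in EBi3KO tumor against 1.247 to 1.294 in EBi3KO nontumor, and 1.534 to 1.642 in WT tumor against 1.468 to 1.525 in WT nontumor libraries.

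**Figure D4:**
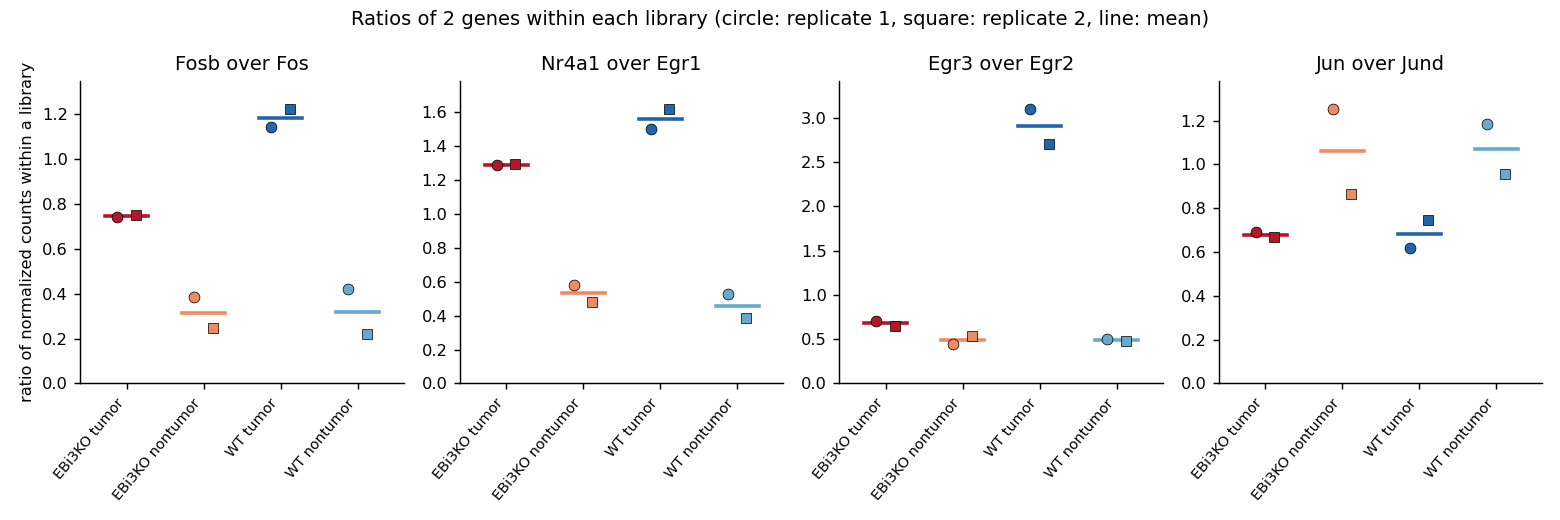
Ratio of the normalized counts of 2 genes within each library (vertical axes from 0) in the 4 groups, with a circle for replicate 1, a square for replicate 2 and a line at the mean. Fosb over Fos and Nr4a1 over Egr1 are higher in tumor than in nontumor libraries of both genotypes, and Egr3 over Egr2 stands apart in WT tumor libraries.

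The 10 genes differed between the libraries of a group in a common direction in EBi3KO nontumor. There, replicate 1 exceeded replicate 2 for all 10 genes, by a median of 0.51 on the log2 scale, where the median absolute difference over all tested genes was 0.167. In WT nontumor it did so for 7 of 10 genes, with a median of 0.23 against a median absolute difference of 0.186 over all tested genes. In EBi3KO tumor the widest difference was 0.067, with a median absolute difference of 0.037 against 0.062 over all tested genes. In WT tumor the widest was 0.45, for Junb, with a median absolute difference of 0.088 against 0.120 over all tested genes. Counting error was far smaller than the nontumor differences for Fosb, Nr4a1, Jun and Egr1. The close EBi3KO tumor pair enters the pooled spread that the tests use. With that pair averaged as 1 sample none of the 3 EBi3KO calls passed (limma adjusted p = 0.155 for Fos, 0.178 for Egr3 and 0.0917 for Nr4a1).

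**Figure D5:**
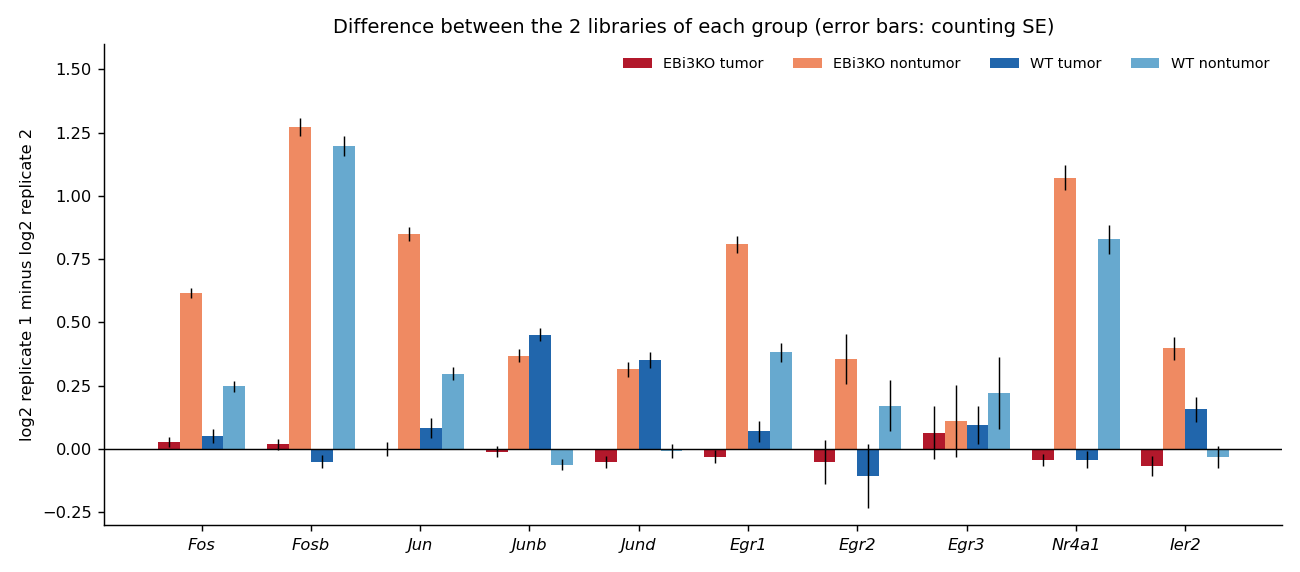
Log2 difference between replicate 1 and replicate 2 (vertical axis) for each gene and group, with bars from 0 and error bars for the standard error from counting alone. The EBi3KO nontumor bars are above 0 for all 10 genes and the EBi3KO tumor bars stay within 0.067 of 0.

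Heat shock genes, which report on stress and tissue handling, moved in the same libraries. Hspa1a had 66.98 and 71.49 normalized counts in EBi3KO tumor libraries, against 35480 and 3801 in EBi3KO nontumor libraries. It had 35.73 and 16.52 in WT tumor libraries, against 11027 and 6376 in WT nontumor libraries. Hspa1b had 249.6 and 275.9 in EBi3KO tumor libraries, against 59338 and 8859 in EBi3KO nontumor libraries, and 54.0 and 53.48 in WT tumor libraries, against 21041 and 13714 in WT nontumor libraries. These paralogs are near-identical, so the split of reads between them is uncertain. Replicate 1 was the higher nontumor library for both, as it was for most of the 10 genes. Of 13 heat shock genes tested, 8 fell and none rose with a tumor in WT, and 9 fell and none rose in EBi3KO. Over all tested genes 79.8% were called in WT, 40.1% lower, and 32.6% in EBi3KO, 18.5% lower. The list took 0.5194% to 0.5222% of reads in EBi3KO tumor, 0.591% to 0.9982% in EBi3KO nontumor, 0.5157% to 0.5175% in WT tumor and 0.5946% to 0.6709% in WT nontumor libraries. Their part in the levels of the 10 genes was not tested.

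Markers of other spleen cells moved as well. B cell markers took 2.079% to 2.429% of reads in every library. Monocyte and macrophage markers took 0.3512% to 0.3528% in EBi3KO tumor, 0.5311% to 0.6646% in EBi3KO nontumor, 0.06883% to 0.07835% in WT tumor and 0.6035% to 0.6643% in WT nontumor libraries. Of 15 such markers tested, 15 fell with a tumor in WT and 13 fell in EBi3KO, and none was at 0 in any group. For these and the marker counts below, 40.1% of all tested genes fell and 39.6% rose in WT. In EBi3KO 18.5% of all tested genes fell and 14.1% rose. Erythroid markers took 0.3235% to 0.333% in EBi3KO tumor, 1.241% to 1.778% in EBi3KO nontumor, 0.08617% to 0.1225% in WT tumor and 0.7312% to 0.7844% in WT nontumor libraries, and all 12 tested fell in both genotypes. Of 8 NK cell markers tested, 7 fell in WT and none was called in EBi3KO, and of 9 T cell markers 7 fell in WT while 1 fell and 1 rose in EBi3KO. Of 11 granulocyte markers 10 fell and 1 rose in WT and 8 fell in EBi3KO, and of 10 dendritic cell markers 8 fell and 1 rose in WT and 4 fell in EBi3KO. Of 8 plasma cell markers 2 rose and 4 fell in WT, and 7 rose and 1 fell in EBi3KO. In bulk B cells, fewer cells of a type and less RNA per cell cannot be told apart, and the part of these cells in the levels of the 10 genes was not tested.

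For the counts of related genes that follow, the shares over all tested genes were 79.8% called with a tumor in WT and 32.6% in EBi3KO. Of 13 other AP-1 family genes tested, 4 rose and 7 fell with a tumor in WT, with a median of -0.81, and 2 fell and none rose in EBi3KO. Batf3, a dendritic cell factor, fell by 3.48 in WT (limma adjusted p = 1.27e-05) and was at -0.55 in EBi3KO (limma adjusted p = 0.198). Of 3 other EGR and NR4A genes and EGR corepressors tested, Nab2, a corepressor of EGR proteins, rose by 0.76 in WT (limma adjusted p = 7.03e-05) and by 0.43 in EBi3KO (limma adjusted p = 0.0127). Nr4a2, the sister of Nr4a1, was at 0.59 in WT and 0.999 in EBi3KO and passed in neither (limma adjusted p = 0.321 and 0.166).

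Of 29 other immediate early genes tested, 7 rose, 12 fell and 10 did not pass with a tumor in WT, and 11 rose, 4 fell and 14 did not pass in EBi3KO. The median was -0.17 in WT and 0.38 in EBi3KO. Ier3 fell by 2.05 in WT, but at low levels (means of 7.12 normalized counts in WT tumor and 32.4 in WT nontumor libraries). Klf2, a quiescence factor, fell by 1.06 (means of 5544 and 11540 in the same order). In EBi3KO the activation marker Cd69 rose by 1.34 (limma adjusted p = 0.00202) and Rgs1, a regulator of chemokine signalling, by 1.04 (limma adjusted p = 0.000451). Bhlhe40 rose in both, by 0.54 in WT and 0.70 in EBi3KO. Between tumor groups 12 of these 29 genes were higher in EBi3KO and 2 lower, against 31.9% higher and 28.6% lower over all tested genes. Myc was 1.27 higher in EBi3KO tumor than in WT tumor libraries (limma adjusted p = 0.000222).

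Of 14 genes tested that shut down the response through RNA decay or phosphatases, 8 rose and 3 fell in WT, and 5 rose and none fell in EBi3KO. The shares called were close to those over all tested genes in both genotypes. Zfp36, whose protein directs decay of AU-rich transcripts, fell by 1.21 in WT (limma adjusted p = 2.28e-06), while its relative Zfp36l2 rose by 1.01 in WT and 1.117 in EBi3KO. Dusp5, a phosphatase of nuclear ERK, rose by 1.62 in WT and 0.99 in EBi3KO. The AU-rich pentamer ATTTA was found in the 3′ untranslated regions of 9 of the 10 members and of 69.5% of 11515 tested genes. Of 18 SRF, TCF and CREB regulators tested, 15 rose and 2 fell in WT, with a median of 1.001, and 6 rose and 1 fell in EBi3KO, with a median of 0.23. Elk4, a TCF partner of SRF, rose by 3.04 in WT, and the coactivator genes Crebbp and Ep300 rose by 2.72 and 2.11. Between tumor groups 12 of the 18 were lower in EBi3KO than in WT and none was higher. Over all tested genes 28.6% were lower and 31.9% higher. Elk4 was at -2.21 there, Crebbp at -1.86 and Ep300 at -1.30. Both comparisons hold the WT tumor libraries, with their sex pattern and title prefix. The part of the length and GC trend in these differences was not tested. Of 19 MAP kinase genes tested, 10 rose and 5 fell in WT, and 3 rose and 2 fell in EBi3KO, no larger a share than over all tested genes.

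Genes whose pattern was most like that of a member were ranked by the root mean square distance of their centred log2 levels over the 8 libraries, among 10940 genes. The nearest to Fos was Arap3 at 0.111, and the nearest member was Jun at 0.157, followed by Egr2 at 0.198 and Ier2 at 0.265. Fosb, Nr4a1 and Egr3 were far from Fos, at 0.892, 1.119 and 1.181. The nearest to Egr1 was Rhbdf1 at 0.155, followed by Klrd1 at 0.197 and Ncr1 at 0.222, with Egr2 as nearest member at 0.238. The nearest to Nr4a1 was Snord22 at 0.207, followed by Nfkbid at 0.276, with Fosb as nearest member at 0.404. The 8 libraries share their normalization and groups, so these distances describe likeness in this table only.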

How the data were processed

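Splenic B cell RNA was sequenced as stranded mRNA libraries, per the labels. The deposited values are a signal: gene read counts divided by size factors, from Salmon and DESeq2 on mm10 per the submitters' processing notes, with versions not given in the sources used here. Whole reads were recovered for 100% of values within 0.01. Genes averaging 10 or more normalized counts (13011) were tested with limma (3.58.1; trend on log2(normalized count + 1), 4 group means, Benjamini-Hochberg). edgeR (4.0.16) quasi-likelihood on the recovered reads called 10435 genes in the WT tumor comparison and 4489 in the EBi3KO one. Alternatives covered scaling, filters, length and GC content, DESeq2 (1.42.0), left-out libraries and a replicate block. No pair of libraries differed by less than sampling noise. The 10 genes and all gene lists were chosen with earlier results of these data known. All 10 members are described, and from each other list up to 4 genes of lowest p per comparison were eligible for naming. Procedures were tested on simulated data. Gene models are GENCODE vM21.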

Additional observations from a re-analysis of the deposited data

Results flagged for a closer look

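Subtracting the WT tumor effect from the EBi3KO one gave a difference that passed its test for 8 of the 10 genes (limma, adjusted over all tested genes). It was 1.03 for Fos (adjusted p = 0.0077), 1.19 for Jun (0.0136), 1.18 for Junb (0.00249), 1.16 for Jund (0.00125), 1.18 for Egr1 (0.0134), 1.23 for Egr2 (0.0011), 0.94 for Ier2 (0.00235) and -0.83 for Egr3 (0.0032). The share called over all tested genes was 52.9%. Each difference rests on 2 libraries per group and on WT tumor libraries that differ from the rest in sex pattern and title prefix, a pattern that cannot be told apart from membership in the WT tumor group. With the length and GC trend removed, 6 of the 10 genes passed: Jund (0.24, adjusted p = 0.216) and Ier2 (0.17, adjusted p = 0.362) did not, and Junb was at 0.50.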

How the results depend on the processing

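Over 21 alternatives, 963 of 1040 values of single genes kept their direction and side of the threshold, 35 lost the call, 14 gained it and 28 changed sign. Genes called with a tumor in EBi3KO numbered 4242, and 733 with the EBi3KO tumor pair averaged; members called there numbered 3, and 1 with no filter, 5 with the length and GC trend removed, 0 with the pair averaged and 1 with the replicate block. Without 1 library these ran from 756 to 5313 genes and from 0 to 4 members; 756 genes and 0 members came without EBi3KO tumor replicate 2. Between nontumor groups 0 genes were called, 1 with the trend removed and 21 with DESeq2, and 0 to 5 without 1 library. The difference of the tumor effects was called for 6881 genes, 4501 with the trend removed. Quantile normalization gave 2477 higher and 2130 lower calls with a tumor in EBi3KO, against 1841 and 2401.

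Values that changed sign were Jund with a tumor in WT (0.13, trend removed), Jund in EBi3KO (0.075 quantile, 0.37 trend removed, 0.002 edgeR), Ier2 in EBi3KO (0.047, trend removed), and Egr3 between nontumor groups (-0.004 quantile, -0.015 trend removed). Without 1 library, Fosb in WT ran from -0.23 to 0.97 and its difference of effects from -0.29 to 0.98. In EBi3KO the ranges were -0.087 to 0.28 for Junb, -0.16 to 0.15 for Jund, -0.24 to 0.57 for Egr1, -0.30 to 0.06 for Egr2 and -0.40 to 0.00 for Ier2. Between nontumor groups they were -0.11 to 0.50 for Fos, -0.42 to 0.85 for Fosb, -0.55 to 0.30 for Jun, -0.25 to 0.061 for Jund, -0.086 to 0.72 for Egr1, -0.13 to 0.23 for Egr2, -0.08 to 0.14 for Egr3 and -0.24 to 0.16 for Ier2. The cause was not tested. For WT libraries sharing a title number, deviations from the group means had a correlation of -0.256 over genes. With 2 libraries per group this is a single value, so it cannot settle whether the numbers mark pairs. Taking the numbers as a replicate block gave 10158 genes with a tumor in WT and 6334 for the difference of effects, with 8 members each. Crossing the numbers, chosen after seeing the data, gave 10519 and 7372 genes.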
